A study of Mus musculus with 13 samples.

Results

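The oncofetal genes Hmga1, Hmga2, Lin28a, Lin28b, Igf2bp1, Igf2bp2, Igf2bp3 and Sall4 were followed through mouse NUT carcinoma (mNC), a poorly differentiated squamous cancer. The 8 genes were taken by name from a table of 55332 genes with values, and all 8 were in it. RNA had been sequenced from 13 bulk tumors. Every tumor came from the NCT model (NCT+/-), in which a Cre recombinase starts the tumors in a chosen cell lineage. The 4 oral WT tumors carried KRT14-Cre and the 2 oral KO tumors also carried Sox2fl/fl. Their label reads KRT4Cre, while the study's methods name KRT14-Cre for both oral groups. The 4 pancreatic WT tumors carried Pdx1-Cre, and the 3 pancreatic KO tumors carried Pdx1-Cre with floxed Sox2, which the labels write "Sox2fl; fl". KRT14-Cre acts in basal cells of oral mucosa, skin and salivary gland, and Pdx1-Cre acts in pancreatic progenitors, so the 2 sites differ in both cell of origin and Cre line. The labels give no age for the mice and do not say whether each tumor came from its own mouse, so the p-values below measure the spread between these tumors. The question for the 8 genes is how their RNA differed between sites and with loss of Sox2.

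These genes are active in the embryo, largely silent in most adult tissues, and return in many cancers. Lin28a and Lin28b encode RNA-binding proteins that block maturation of the let-7 microRNAs, and let-7 in turn represses mRNAs that carry its sites, including those of Hmga2, Lin28b and Igf2bp1. Hmga1 and Hmga2 encode architectural proteins that bind AT-rich DNA in chromatin. The Igf2bp proteins bind mRNAs, among them that of the growth factor Igf2, and affect their stability, transport and translation. Sall4 encodes a zinc finger transcription factor of stem and germ cells.

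Each of the 8 genes holds a match to the let-7 seed, so these matches are shown before the levels. The mature let-7a-5p sequence (RefSeq, GRCm38.p6, chr13:48538239-48538260, minus strand) is given first, with the seed, bases 2 to 8, in capitals. Below it is the first match in the longest annotated 3' UTR of each gene (GENCODE M21, GRCm38), written 5' to 3' on the gene's strand, with the 7 bases that pair with the seed in capitals.
let-7a-5p: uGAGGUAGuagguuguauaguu
Hmga1 (chr17:27563277-27563299, plus strand): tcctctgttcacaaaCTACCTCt
Hmga2 (chr10:120364224-120364246, minus strand): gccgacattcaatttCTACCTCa
Lin28a (chr4:134005189-134005211, minus strand): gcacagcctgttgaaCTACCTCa
Lin28b (chr10:45381022-45381044, minus strand): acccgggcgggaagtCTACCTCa
Igf2bp1 (chr11:95961778-95961800, minus strand): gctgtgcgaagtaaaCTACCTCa
Igf2bp2 (chr16:22059473-22059495, minus strand): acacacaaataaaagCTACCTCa
Igf2bp3 (chr6:49086787-49086809, minus strand): tgcatttttactcaaCTACCTCa
Sall4 (chr2:168748940-168748962, minus strand): agggctttaatttatCTACCTCa

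The letters CTACCTC were searched on the transcript strand. All 8 genes held at least 1 match, while 9.0% of the 21021 protein-coding genes with a 3' UTR did. Targets of let-7, such as Hmga2, Lin28b and Igf2bp1, are among the 8 by choice, so this share is a description and no test. Hmga2, Lin28b and Igf2bp1 held 4 matches each, Lin28a held 2, and Hmga1, Igf2bp2, Igf2bp3 and Sall4 held 1 each. In all, 12 protein-coding genes held 4 or more, and they included Trim71, an RNA-binding ubiquitin ligase and let-7 target, and Nr6a1, an embryonic nuclear receptor with the largest number, 8. UTR length adds to these counts: of genes with a 3' UTR about as long as that of Igf2bp1 (6337 bases), 34.4% held a match and 0.33% held as many as 4. Among the genes with 1 match, the share of like-length genes with a match was 8.2% for Hmga1 (1183 bases) and 12.1% for Igf2bp2. It was 13.3% for Igf2bp3 and 11.4% for Sall4. A match is a description of the letters, and mature let-7 was not measured here.

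Depth differed by group and sets how firmly the low genes can be read. Estimated counts summed to 29394258 to 46134830 in WT tumors of both sites, to 11735315 and 20432164 in oral KO and to 89562790 to 120482829 in pancreatic KO tumors. The share from protein-coding genes was 59.5% in oral KO tumor 1 and 84.5% to 91.7% in the other 12. Sox2 RNA had at most 2 counts in any KO tumor and at least 410 in any WT tumor. Both oral KO tumors were high in skeletal muscle markers, with a summed level of 5201 and 2810 CPM (counts scaled to the library total) over 10 markers, against 7.51 to 502 CPM in oral WT tumors, where tumor 4 was the highest, and 4.90 to 8.13 CPM in pancreatic tumors. All 10 of these markers exceeded 3 counts in at least 1 tumor of each oral group. The 9 basal squamous markers summed to 4921 to 7930 CPM in oral KO and 5814 to 11046 CPM in oral WT tumors. In bulk tumors, fewer cells of a type and less RNA per cell cannot be told apart.

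**Figure D1:**
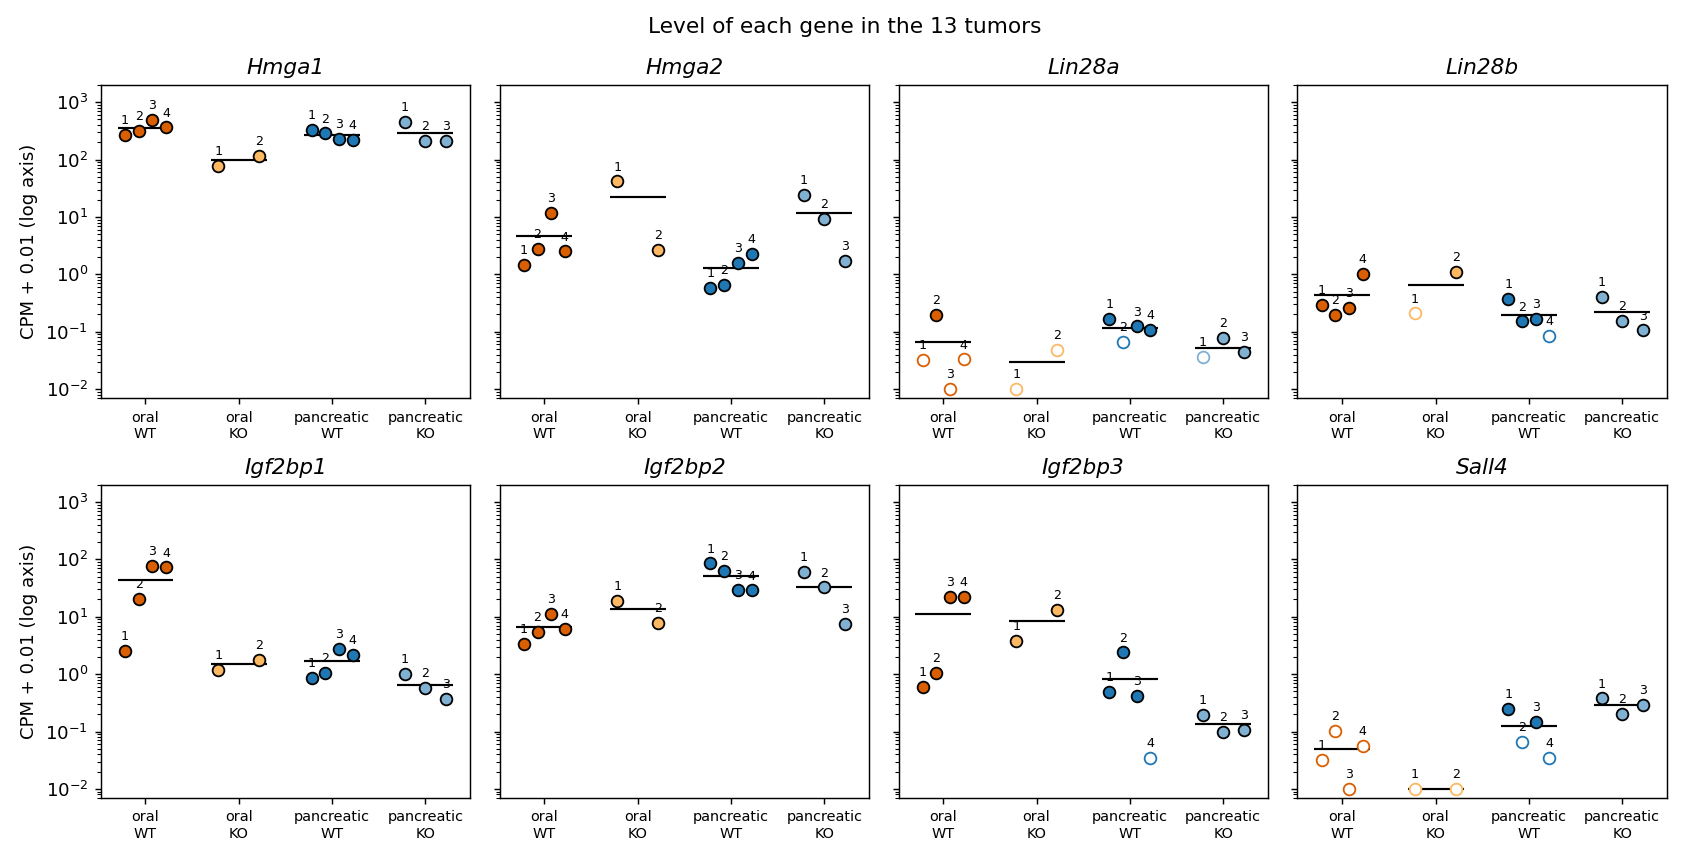
Level of each gene in each tumor, as CPM plus 0.01 on a log axis, by site and genotype. Points are tumors with their numbers, bars are group means, and open points have at most 3 counts; Hmga1 is the highest gene in each group, at 78.4 CPM or more, and Lin28a and Sall4 lie below 1 CPM throughout.

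Per length, Hmga1 was by far the most abundant of the 8 RNAs and Lin28a and Sall4 were at the edge of detection. In oral WT tumors Hmga1 had a mean level of 169 ± 46.1 CPM per kilobase of exon (SD, n = 4), followed by Igf2bp1 at 4.47 ± 3.87, Igf2bp3 at 1.39 ± 1.49, Igf2bp2 at 0.876 ± 0.440, Hmga2 at 0.682 ± 0.707 and Lin28b at 0.0479 ± 0.0427. Igf2bp1, Igf2bp3, Igf2bp2 and Hmga2 could not be ordered beyond their spread. In pancreatic WT tumors Hmga1 was at 125 ± 23.3 CPM per kilobase (SD, n = 4) and the next was Igf2bp2, at 6.94 ± 3.69. All other genes of the 8 lay below 0.2 CPM per kilobase on average in pancreatic WT tumors, with Hmga2 at 0.187 ± 0.120, Igf2bp1 at 0.176 ± 0.0944 and Igf2bp3 at 0.101 ± 0.129, which overlap.

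Hmga1 (17:27556497-27563674, plus strand) was the 1 gene that edgeR called lower in oral tumors without Sox2. Igf2bp1, described below, had a larger fitted fall (log2 fold change -4.78) that edgeR did not call. The level of Hmga1 was 267, 316, 495 and 364 CPM in oral WT tumors 1 to 4 and 78.4 and 117 CPM in oral KO tumors 1 and 2. The lowest WT tumor stood above the highest KO tumor, so the groups did not overlap. The fitted log2 fold change of Hmga1 was -1.81 ± 0.33 (SE), or 3.51-fold lower (edgeR quasi-likelihood test, adjusted p = 0.0236). Calling a gene took an adjusted p below 0.05 together with a change of more than 1 on the log2 scale in either direction. Hmga1 was the 1 gene called of the 6 that could be tested in this comparison, or 16.7%, where 11.7% of all 22342 genes tested were called. The call rested on few tumors: with each tumor left out in turn the log2 fold change ran from -2.09 to -1.57, but it stayed a call in 2 of 6 fits (adjusted p = 0.0302 to 0.0927). It was lost without oral WT tumor 1, oral WT tumor 2, oral KO tumor 1 or oral KO tumor 2. It was also lost when only protein-coding genes were fitted (log2 fold change -1.61, adjusted p = 0.0644). The 2 tumors with low Hmga1 are those with high skeletal muscle markers, and the part of muscle RNA in the difference was not tested.

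In pancreatic tumors Hmga1 did not pass the test. Its level was 325, 286, 228 and 221 CPM in pancreatic WT tumors 1 to 4 and 448, 213 and 211 CPM in pancreatic KO tumors 1 to 3. The KO tumors lay on both sides of the WT range, with tumor 1 the highest of all pancreatic tumors. KO against WT gave 0.14 ± 0.29 on the log2 scale (SE, adjusted p = 0.856). The KO over WT difference of Hmga1 differed between sites, with an interaction of -2.01 ± 0.46 on the log2 scale (SE, adjusted p = 0.0179). The oral KO tumors also have the highest skeletal muscle markers and the smallest libraries, and the part of these in the interaction was not tested. Hmga1 was the 1 gene called for the interaction among 7 tested, where 12.3% of all genes were called. Over 13 fits with 1 tumor left out the interaction ran from -2.33 to -1.55, and the call was lost without oral KO tumor 1 (adjusted p = 0.0641). Between sites, KO tumors differed too: oral KO tumors were lower than pancreatic KO tumors by 2.97-fold (log2 fold change -1.57 ± 0.37, SE, adjusted p = 0.00709), a call lost without oral KO tumor 1 (adjusted p = 0.0594). WT tumors of the 2 sites were not called apart (log2 fold change 0.44 ± 0.27, SE, adjusted p = 0.277).

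**Figure D2:**
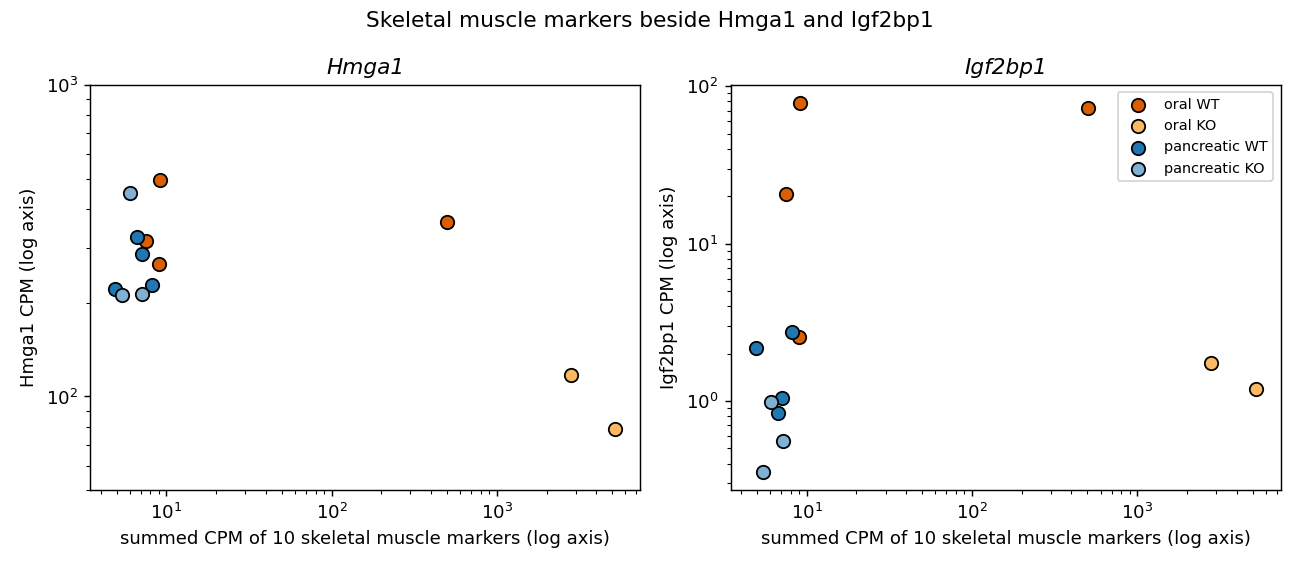
Hmga1 (left) and Igf2bp1 (right) in CPM against the summed CPM of 10 skeletal muscle markers, both on log axes, with 1 point per tumor. The 2 oral KO tumors, at 5201 and 2810 CPM of muscle markers, have the lowest Hmga1; oral WT tumor 4, at 502 CPM of muscle markers, has Hmga1 and Igf2bp1 within the oral WT range.

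Hmga1 shares much of its sequence with its retrocopy Hmga1b. Of the distinct 31-base words in the Hmga1 transcripts, 62.09% also occur in another gene on either strand. Hmga1b holds all of that share, so reads could be divided between the pair. Hmga1b took 14.6% and 16.4% of the summed counts of the pair in pancreatic WT tumors 2 and 3 and 0.504% or less in the other tumors. With both counts added, the oral log2 fold change stayed at -1.81 (adjusted p = 0.0236) and the pancreatic one was 0.02. The pair summed to 336 and 273 CPM in pancreatic WT tumors 2 and 3, where Hmga1 alone had 286 and 228.

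Hmga2 (10:120361275-120476469, minus strand), the fetal paralog of Hmga1, was led by single tumors. It stood at 1.46, 2.77, 11.7 and 2.50 CPM in oral WT tumors 1 to 4 and at 41.6 and 2.69 CPM in oral KO tumors 1 and 2. Oral KO tumor 2 lay inside the WT range. Its log2 fold change was 2.34 ± 1.15 (SE, adjusted p = 0.194), and without oral KO tumor 1 it was -0.73. In pancreatic tumors Hmga2 was 0.577, 0.651, 1.55 and 2.29 CPM in WT and 23.9, 9.26 and 1.68 CPM in KO. Pancreatic KO tumors 1 and 2 lay above every WT tumor and KO tumor 3 lay inside the WT range. Its log2 fold change was 3.19 ± 0.87 (SE), or 9.14-fold, with an unadjusted p of 0.00712 and an adjusted p of 0.143 by edgeR. DESeq2's Wald test on the same counts called it (adjusted p = 0.00141). The difference between sites in this response was -0.93 ± 1.56 on the log2 scale (SE, adjusted p = 0.704), too wide to tell the sites apart.

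Lin28a (4:134003330-134018841, minus strand) and Lin28b (10:45376620-45486395, minus strand) gave little RNA in any tumor. Lin28a had 0 to 6 counts per tumor and at most 0.185 CPM, and it was below the count filter in every comparison. Its counts do not allow a comparison at this depth. Lin28b had 6, 8, 13 and 44 counts in oral WT tumors 2, 3, 1 and 4, 2 and 28 counts in oral KO tumors, 3 to 14 counts in pancreatic WT tumors and 11 to 45 counts in pancreatic KO tumors. It reached 1.01 CPM in oral WT tumor 4 and 1.09 CPM in oral KO tumor 2, and lay between 0.0739 and 0.393 CPM in the other tumors. Lin28b did not pass the test in any of the 5 comparisons, with an adjusted p of 0.589 in oral and 0.914 in pancreatic tumors for KO against WT.

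The 3 Igf2bp paralogs made up different shares of the family in WT tumors of the 2 sites. The plot of the family per length shows Igf2bp2 as nearly the whole family in pancreatic tumors, at 92.2% to 98.8% of the summed CPM per kilobase in WT and 95.4% to 98.5% in KO tumors. In oral WT tumors Igf2bp1 made up 33.1% to 71.1%, Igf2bp2 7.48% to 57.6% and Igf2bp3 4.29% to 24.4%. In oral KO tumors 1 and 2 Igf2bp1 made up 3.88% and 6.39%, Igf2bp2 81.6% and 37.2%, and Igf2bp3 14.6% and 56.5%, so tumor 1 was mostly Igf2bp2. The summed level of the family ran from 0.791 to 12.2 CPM per kilobase in oral WT and from 4.11 to 11.6 in pancreatic WT tumors, so the totals overlapped, while the Igf2bp2 shares of the WT tumors did not.

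**Figure D3:**
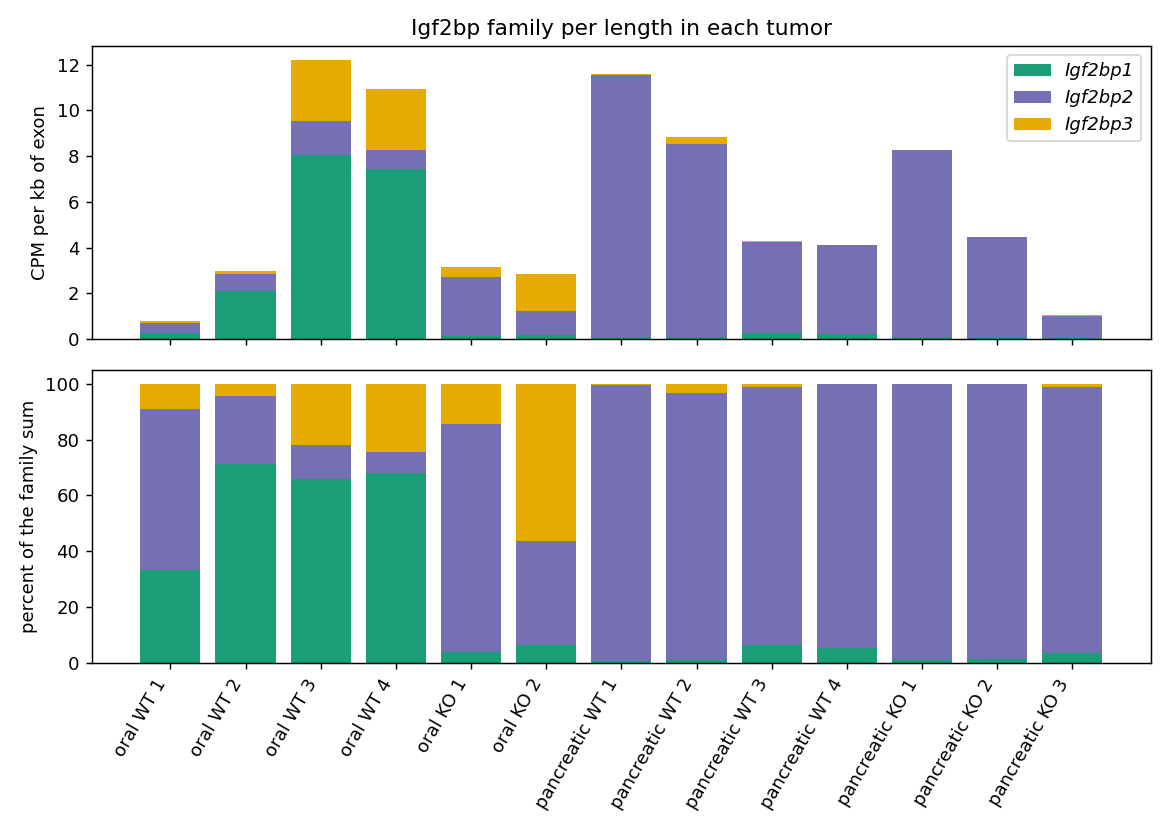
Summed level of Igf2bp1, Igf2bp2 and Igf2bp3 in CPM per kilobase of exon (top) and each paralog's percent of that sum (bottom), with 1 bar per tumor. Igf2bp2 fills at least 92.2% of every pancreatic bar, and Igf2bp1 is the largest part in oral WT tumors 2, 3 and 4.

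Igf2bp1 (11:95957163-96005940, minus strand) was higher in oral than in pancreatic WT tumors and varied 30.7-fold among the oral WT tumors. It stood at 2.54, 20.6, 77.8 and 72.2 CPM in oral WT tumors 1 to 4 and at 0.840, 1.05, 2.76 and 2.17 CPM in pancreatic WT tumors 1 to 4. Oral WT tumor 1 lay inside the upper part of the pancreatic range and the other 3 oral tumors lay far above it. The log2 fold change was 4.66 ± 0.89 (SE), or 25.3-fold (edgeR, adjusted p = 0.00374), and it stayed a call in all 13 fits with a tumor left out (4.22 to 5.06). Igf2bp1 and Igf2bp2 were the 2 genes called of 7 tested between WT tumors of the 2 sites, or 28.6%, where 15.5% of all 25836 genes tested were called.

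With Sox2 deleted, Igf2bp1 stood at 1.19 and 1.75 CPM in oral KO tumors, below every oral WT tumor. Its log2 fold change was -4.78 ± 1.49 (SE), a mean of 1.47 CPM against 43.3 CPM, but it was not called (unadjusted p = 0.0160, adjusted p = 0.0752). DESeq2 called it (-4.86, adjusted p = 0.00239), as did 1 edgeR fit of all 13 tumors (-4.84, adjusted p = 0.0146), while no fit with an oral tumor left out did (adjusted p = 0.0510 to 0.232). In pancreatic tumors Igf2bp1 was 0.988, 0.561 and 0.355 CPM in KO tumors 1 to 3, overlapping the WT tumors, with a log2 fold change of -1.41 ± 0.53 (SE, adjusted p = 0.245). The interaction was -3.42 ± 1.39 on the log2 scale (SE, adjusted p = 0.109). In KO tumors the 2 sites were not called apart (log2 fold change 1.24 ± 1.07, SE, adjusted p = 0.374).

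Igf2bp2 (16:22059009-22163299, minus strand), the paralog with the widest adult expression, had the reverse order between sites. It stood at 3.38, 5.45, 11.1 and 6.06 CPM in oral WT tumors and at 84.9, 62.5, 29.4 and 28.8 CPM in pancreatic WT tumors. No oral WT tumor reached the lowest pancreatic WT tumor. Oral over pancreatic, the log2 fold change was -2.99 ± 0.64 (SE), or 7.94-fold lower in oral tumors (edgeR, adjusted p = 0.00686), and it was called in all 13 fits with a tumor left out. Oral KO tumors were at 19.2 and 7.80 CPM and pancreatic KO tumors at 60.4, 32.5 and 7.36 CPM. These overlap each other, and the site difference in KO tumors was not called (log2 fold change -1.32 ± 0.81, SE, adjusted p = 0.212). KO against WT was not called at either site (oral 1.13 ± 0.54, SE, adjusted p = 0.178, pancreatic -0.62 ± 0.69, SE, adjusted p = 0.718).

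Igf2bp3 (6:49085223-49214957, minus strand) split the oral WT tumors. It stood at 0.596 and 1.05 CPM in oral WT tumors 1 and 2 and at 21.8 CPM in both oral WT tumors 3 and 4, the 2 tumors with the most Igf2bp1. Oral KO tumors 1 and 2 had 3.77 and 13.1 CPM, between those values. The log2 fold change in oral tumors was -0.37 ± 1.47 (SE, adjusted p = 0.880). Pancreatic WT tumors had 0.472, 2.38, 0.410 and 0.0246 CPM, and pancreatic KO tumors had 0.184, 0.0897 and 0.0953 CPM. The KO tumors of the 2 sites did not overlap. There the log2 fold change of oral over pancreatic was 6.08 ± 1.70 (SE), or 67.5-fold (edgeR, adjusted p = 0.0167), from 38 and 335 counts in oral KO tumors 1 and 2 and 21, 8 and 11 counts in pancreatic KO tumors 1 to 3. The call was lost without oral KO tumor 2, pancreatic KO tumor 2 or pancreatic KO tumor 3 (4.91 to 5.92, adjusted p up to 0.0796). In WT tumors the log2 fold change was 3.80 ± 1.28 (SE) and fell short of the threshold (adjusted p = 0.0534). Of the Igf2bp3 words of 31 bases, 18.59% also occur in another gene, mostly its neighbor Malsu1. This share ignores strand, while the libraries were stranded, so it is no measure of reads shared between the genes.

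**Figure D4:**
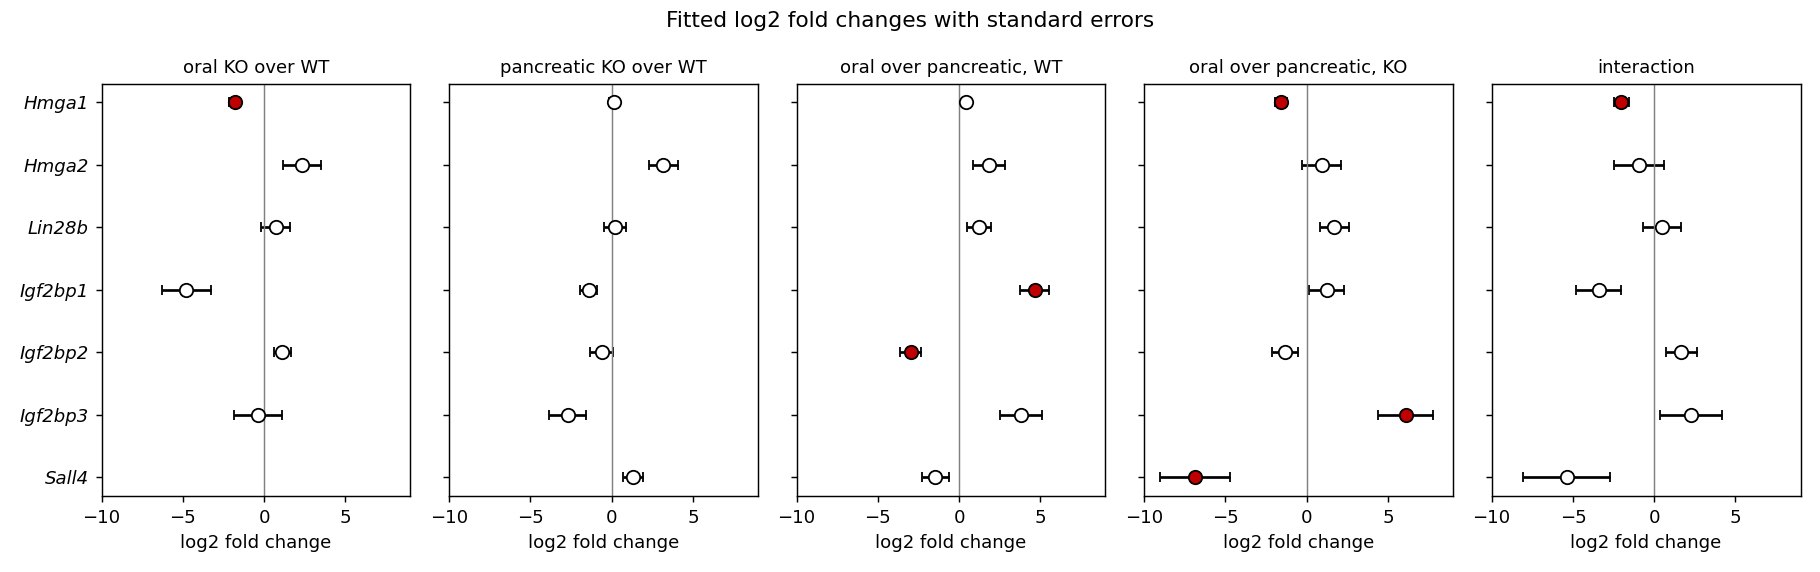
Log2 fold change of each gene in 5 comparisons (1 panel each), with bars of 1 standard error; filled points were called and open points were not. Hmga1 is called in 3 panels, Igf2bp1 and Igf2bp2 between WT tumors of the 2 sites, and Igf2bp3 and Sall4 between KO tumors; Lin28a could not be tested.

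Sall4 (2:168748332-168767943, minus strand) was near its detection limit. It had 1, 3, 0 and 2 counts in oral WT tumors, 0 in both oral KO tumors, 9, 2, 6 and 1 in pancreatic WT tumors and 42, 17 and 32 in pancreatic KO tumors, which are the deepest libraries. In CPM the pancreatic KO tumors had 0.367, 0.191 and 0.277, and pancreatic WT tumors had 0.236, 0.0566, 0.137 and 0.0246. The groups overlapped, and KO against WT was not called (log2 fold change 1.29 ± 0.62, SE, adjusted p = 0.359). Oral KO tumors were called lower than pancreatic KO tumors (adjusted p = 0.0269), but a fitted fold against 0 counts is not a bound. Against a floor of 3 counts in each oral KO tumor, a mean of 0.207 CPM, Sall4 was at least 1.34-fold lower there. Sall4 passed the count filter through the pancreatic KO tumors alone, and with all libraries thinned to the smallest it could not be tested. Its call is therefore no support for a difference. It was also lost without oral KO tumor 1, oral KO tumor 2 or pancreatic KO tumor 1 (adjusted p up to 0.172). Hmga1 and Igf2bp3 were the other two genes called between KO tumors of the 2 sites, where 28.4% of all genes tested were called.

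In pancreatic tumors, 0 of the 7 genes tested were called between KO and WT by edgeR, where 0.629% of all 24653 genes tested were. At an unadjusted p under 0.05 there were 3 (Hmga2, Igf2bp1 and Igf2bp3), where 3916 of all 24653 genes were. DESeq2 called 1 (Hmga2). Hmga2 stood at 3.19 and Igf2bp1 and Igf2bp3 at -1.41 and -2.70 on the log2 scale.

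The genes around this axis were followed by 6 lists. Between WT tumors of the 2 sites, 9 of 17 fetal and imprinted growth genes tested were called higher in oral tumors and 0 lower. Of all genes, 8.69% were called higher and 6.84% lower. The list's median log2 fold change was 2.52, where that of all genes was 0.005. DESeq2 called 9 in either direction. Of the 17, 11 had an unadjusted p under 0.05, where 9012 of all 25836 genes did. Mest, an imprinted gene of the mesoderm, was 44.6-fold higher (log2 fold change 5.48 ± 0.63, SE, adjusted p = 0.000299), with 16.6 ± 6.77 CPM in pancreatic against 741 ± 466 CPM in oral WT tumors (SD, n = 4 each). Gpc3, a cell surface proteoglycan that restrains fetal growth, was higher by 5.43 ± 0.66 (SE, adjusted p = 0.000348), and Cdkn1c, a growth-limiting cell cycle inhibitor, by 3.01 ± 0.36 (SE, adjusted p = 0.000279). Igf2, the growth factor whose mRNA gives the Igf2bp family its name, stood at 4736 to 10359 CPM in oral and 762 to 1180 CPM in pancreatic WT tumors (log2 fold change 2.91 ± 0.37, SE, adjusted p = 0.000385). H19, its imprinted neighbor, was higher by 2.32 ± 0.47 (SE, adjusted p = 0.00488). Fibroblast markers moved with these genes, 7 of 8 called higher in oral WT tumors, and the 8 summed to 9077 to 19588 CPM in oral WT and 1466 to 2740 CPM in pancreatic WT tumors, and their part in the differences was not tested.

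Among KO tumors, 7 of the 17 fetal and imprinted growth genes were called, each higher in oral tumors, with a median of 1.02, where 28.4% of all genes tested were called in either direction and their median was 0.077. Igf2 (2.92 ± 0.46, SE, adjusted p = 0.000894), Gpc3 (3.36 ± 0.72, SE, adjusted p = 0.00483) and Plag1, a growth-promoting zinc finger factor (2.80 ± 0.63, SE, adjusted p = 0.00544), had the smallest adjusted p. Plag1 was low and uneven, at 0.794 and 5.15 CPM in oral KO and 0.312 to 0.505 CPM in pancreatic KO tumors. Markers of other cell types were higher in oral KO tumors as well, with all 10 skeletal muscle markers (median 7.12) and 4 of 8 fibroblast markers (median 0.92) called higher, and their part in the differences was not tested.

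Igf2 was also the 1 gene of the 6 lists that edgeR called with Sox2 loss in pancreatic tumors, where DESeq2 called 2 of the fetal and imprinted list. It stood at 881, 1057, 1180 and 762 CPM in pancreatic WT and at 325, 316 and 356 CPM in pancreatic KO tumors, with no overlap. The log2 fold change was -1.53 ± 0.17 (SE), or 2.89-fold lower (edgeR, adjusted p = 0.0125), where 0.292% of all genes were called lower and 0.337% higher. H19 had a log2 fold change of -0.88 ± 0.23 (SE, adjusted p = 0.119). In oral tumors Igf2 was at 1030 and 3989 CPM in KO, below every WT tumor, and its log2 fold change of -1.49 ± 0.59 was not called (SE, adjusted p = 0.121). In the other 5 lists edgeR called 0 genes in pancreatic tumors and DESeq2 called 1, among the other let-7 targets. An unadjusted p under 0.05 was found for 4 of 22 microRNA processing genes, 5 of 30 let-7 targets, 1 of 11 high mobility group genes, 1 of 15 m6A genes and 0 of 10 Sall and pluripotency genes. Over all genes it was found for 3916 of 24653.

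In oral tumors edgeR called 5 genes of the lists with Sox2 loss, where 8.81% of all genes were called higher and 2.89% lower. Calls in this comparison depend on the setting, with 2614 genes called in all and 27 with protein-coding genes alone. Both oral KO tumors are high in skeletal muscle markers, and the part of muscle RNA in these changes was not tested. Cdkn1c fell 6.23-fold (log2 fold change -2.64 ± 0.37, SE, adjusted p = 0.0183), the 1 call among 16 fetal and imprinted growth genes tested, whose median was -1.01 against -0.003 over all genes (DESeq2 called 5 of the 16). Among 30 other let-7 targets, Nr6a1 rose (1.05 ± 0.28, SE, adjusted p = 0.0475) and Ccnd1, the cell cycle gene of cyclin D1, fell (-1.42 ± 0.38, SE, adjusted p = 0.0493), and the list's median was -0.15. Hmgn1, a nucleosome-binding protein, fell (-1.15 ± 0.26, SE, adjusted p = 0.0331) as the 1 call among 11 other high mobility group genes, of which DESeq2 called 3. Of those 11, 10 had a log2 fold change below 0 and the median was -0.53. Utf1, a chromatin factor of embryonic stem cells, fell (-2.95 ± 0.56, SE, adjusted p = 0.0248) among 7 Sall paralogs and pluripotency genes tested. It was low, at 0.298 and 0.507 CPM in oral KO and 2.12 to 4.87 CPM in oral WT tumors. The list as a whole did not go its way, with 5 of the 7 above 0 and a median of 0.84. In the lists of microRNA processing (21 tested) and m6A genes (15 tested), 0 were called by edgeR and 0 by DESeq2. In each, 5 had an unadjusted p under 0.05, where 7913 of all 22342 genes tested did.

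Genes of the let-7 axis were called in both directions between sites, at shares near or below those of all genes. Of 22 genes of microRNA processing and let-7 turnover tested between WT tumors, Ago4, an Argonaute protein, was the 1 called (1.14 ± 0.26, SE, adjusted p = 0.00775), where 15.5% of all genes were called, and the list's median was 0.23. Trim71 had 242 counts in oral WT tumor 4, at 5.56 CPM, and at most 16 counts in every other tumor, so its log2 fold change of 4.33 ± 1.59 between WT groups (SE, adjusted p = 0.0724) rests on that tumor. Dis3l2, the exonuclease that degrades uridylated let-7 precursors, had log2 fold changes of 0.77 ± 0.20 between WT tumors (SE, adjusted p = 0.0153, under the fold threshold) and 0.01 ± 0.26 for oral KO against WT (SE, adjusted p = 0.974). Of 30 other let-7 targets, 2 were called higher in oral WT tumors, the cell cycle factor E2f2 (1.51 ± 0.27, SE, adjusted p = 0.00214) and Thbs1 (1.30 ± 0.25, SE, adjusted p = 0.00350), and 2 lower, among them Slc20a1 (-1.12 ± 0.21, SE, adjusted p = 0.00299). Of all genes, 15.5% were called in either direction. The median of the 30 was 0.03, and 16 had an unadjusted p under 0.05, where 9012 of all 25836 genes did. Between KO tumors 9 of the 30 were called, a share near the 28.4% of all genes, 4 higher in oral tumors and 5 lower, with a median of -0.39 against 0.077 over all genes. E2f2 (1.77 ± 0.33, SE, adjusted p = 0.00220), the growth factor receptor Igf1r (1.23 ± 0.26, SE, adjusted p = 0.00427) and Irs2 (1.76 ± 0.58, SE, adjusted p = 0.0342) were higher, and Nras (-1.06 ± 0.17, SE, adjusted p = 0.000942) and Map4k4 (-1.02 ± 0.20, SE, adjusted p = 0.00247) were lower.

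The other lists were compared between sites against the same shares of all genes, 15.5% between WT and 28.4% between KO tumors. Of all 25836 genes tested, 9012 had an unadjusted p under 0.05 between WT and 12578 between KO tumors. Among 11 other high mobility group genes, Hmgn2 was called higher in oral WT tumors (1.33 ± 0.37, SE, adjusted p = 0.0251), and between KO tumors 0 were called by either tool, with 6 at an unadjusted p under 0.05. Among 15 genes that write, erase or read the m6A mark, which the Igf2bp proteins also bind, 0 were called between WT tumors by either tool, with 2 at an unadjusted p under 0.05. Between KO tumors the m6A writer components Cbll1 (-1.17 ± 0.22, SE, adjusted p = 0.00201) and Rbm15b (-1.07 ± 0.23, SE, adjusted p = 0.00428) were lower in oral tumors. Of 22 genes of microRNA processing, Prkra, a Dicer partner, was the 1 called between KO tumors (-1.01 ± 0.21, SE, adjusted p = 0.00344). Of 10 Sall paralogs and pluripotency genes tested, Nanog (1.53 ± 0.45, SE, adjusted p = 0.0199) and Zfp42 (2.46 ± 0.78, SE, adjusted p = 0.0269) were higher in oral KO tumors. Both were low. Nanog had 1.39 and 1.48 CPM in oral KO and 0.489 to 0.505 CPM in pancreatic KO tumors. Zfp42 had 0.198 and 0.780 CPM in oral KO and 0.0785 to 0.114 CPM in pancreatic KO tumors, so its call rests on few counts. Between WT tumors 4 of the 10 were called, 2 higher and 2 lower in oral tumors.

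Of the Sall paralogs, Sall1 and Sall2 took opposite orders between WT tumors. Utf1 (2.89 ± 0.41, SE, adjusted p = 0.000655) and the growth factor coreceptor Tdgf1 (-3.02 ± 0.93, SE, adjusted p = 0.0362) were also called. Tdgf1 was at 0.0317 to 0.246 CPM in oral WT and 0.141 to 2.68 CPM in pancreatic WT tumors. It passed the count filter through the pancreatic tumors alone, so its call is no support for a difference. Sall1 was lower in oral tumors (log2 fold change -3.83 ± 1.08, SE, adjusted p = 0.0254), at 0.531 ± 0.420 CPM against 7.70 ± 5.98 CPM in pancreatic tumors, and Sall2 was higher (2.20 ± 0.52, SE, adjusted p = 0.0109), at 23.02 ± 8.14 against 5.01 ± 3.56 CPM (SD, n = 4 each). Oral KO tumor 1 had 11.4 CPM of Sall1 and oral KO tumor 2 had 0.663 CPM, and KO against WT was not called (3.57 ± 1.17, SE, adjusted p = 0.0826). Sall3 had a mean of 0.448 CPM or less in every group. Plagl2 and Arid3b, let-7 targets with a role in growth and chromatin, were not called in any of the 4 comparisons between groups.

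After subtracting each site's mean, the protein-coding genes most like Hmga1 over the 13 tumors were Mrps23 (Pearson r of log2 CPM 0.96), Llph (0.95) and Mrpl43 (0.95), of 14163 compared. Mrps23 and Mrpl43 encode proteins of the mitochondrial ribosome. Those most like Igf2bp1 were Otulin, Hipk1 and Dhx8 (0.91 each), and those most like Igf2bp2 were En1 (0.90), Sema3e (0.86) and Ccser1 (0.86). For Hmga2 they were Uimc1 (0.89), Ptprm (0.84) and Srsf11 (0.84), and for Igf2bp3 Alox8 (0.83), Arfgef2 (0.82) and Bend4 (0.82). The low counts of Lin28b and Sall4 were most like Muc3a (0.85), Entpd7 (0.84) and Tmem86b (0.84), and Ggnbp1 (0.83), Lyplal1 (0.80) and Tub (0.76). These are the highest of many correlations over tumors that share depth and muscle RNA differences, and they are given as a description. Among the 7 genes compared, without Lin28a, Hmga1 and Igf2bp1 were the most alike (0.75), with an r of 0.88 over the 6 oral and 0.01 over the 7 pancreatic tumors, while Hmga1 and Hmga2 had an r of -0.16.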

How the data were processed

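RNA of 13 mNC tumors had been depleted of ribosomal RNA and sequenced as stranded libraries. The authors trimmed reads with Trim Galore 0.6.10, quantified them with kallisto 0.50.0 on GENCODE M23 transcripts (GRCm38) and summed them per gene with tximport. They deposited estimated counts per gene with no scaling, of which 27.3% were not whole, and these were rounded here. Of 56085 genes listed, 55332 have values. Symbols, positions and 3' UTRs came from GENCODE M21, which holds 55141 of them.

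A gene entered a fit if 2 or more of its tumors had 10 or more counts, and was tested with edgeR 4.0.16 (quasi-likelihood, robust dispersions, TMM scaling, Benjamini-Hochberg) in R 4.3.3, within each site for KO against WT and in 1 fit of all 13 tumors for sites and their interaction. Calls took an adjusted p below 0.05 and a log2 change of more than 1 either way. CPM used TMM-scaled totals. A floor of 3 counts per library was used for genes at 0, and it covers counting error only. The fits were tested on simulated data. DESeq2 1.42.0, other filters, scalings and left-out tumors were alternatives. The 8 genes and the 6 lists were chosen with earlier results of these data known. Beyond the 8 genes, the text names up to 3 called genes per list and direction with the smallest adjusted p, set genes of the axis, and the 3 genes most like each in pattern. Some genes that this rule names are not reported here.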

Additional observations from a re-analysis of the deposited data

Results flagged for a closer look

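The KO over WT difference of Hmga1 differed between sites by the test of the interaction itself (-2.01 on the log2 scale, oral minus pancreatic, adjusted p = 0.0179 by edgeR). Of all genes tested, 12.3% were called for the interaction. With the tumor number as a block the edgeR adjusted p was 0.0539, and without oral KO tumor 1 the interaction was -1.80. The oral KO tumors also have the highest skeletal muscle markers and the smallest libraries, and the part of these in the difference was not tested. Oral KO tumors had 78.4 and 117 CPM against 267 to 495 CPM in WT, and pancreatic KO tumors had 211 to 448 CPM against 221 to 325 CPM in WT.

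In oral WT tumors, 3 genes had 1 tumor far from the other 3. The gap of the highest tumor to the next, divided by the group's range, was 0.872 for Hmga2 (tumor 3), 0.876 for Lin28a (tumor 2, from 6 counts) and 0.876 for Lin28b (tumor 4), above the critical value of 0.829 for 4 samples. These are 3 of 15 combinations of gene and WT group looked at. The critical value is set for normally distributed values, of which chance puts about 1 in 20 past it. The gaps were taken on CPM, and for Lin28a on 1, 6, 0 and 1 counts. How often chance alone passes the value in such data was not tested. The 3 flags are therefore a description and no test.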

How the results depend on the processing

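Depth limits Lin28a, Lin28b and Sall4 above all, and the oral KO group holds 2 tumors. The numbers of genes called by edgeR moved with the setting. For oral KO against WT, 2614 genes were called, and 4005 with DESeq2 (2606 higher, 1399 lower, against 1968 and 646), 27 with protein-coding genes alone, 65 with the tumor number as a block, 5082 in 1 fit of all 13 tumors and 36 to 2616 with a tumor left out. Of the 8 genes, 1 was called, and 2 with DESeq2 or with 1 fit of all 13 tumors, 0 with protein-coding genes alone, 0 with the block and 0 to 1 with a tumor left out. For pancreatic KO against WT, 155 genes were called, and 239 with no filter, 75 with at least 10 counts in every tumor, 1115 with DESeq2 (389 higher, 726 lower, against 83 and 72), 10 with protein-coding genes alone, 590 with the block, 92 in the fit of all 13 tumors and 43 to 269 with a tumor left out. Of the 8 genes, 0 were called, 1 with DESeq2 and 0 to 0 with a tumor left out. Between WT tumors, 4012 became 2332 with at least 10 counts in every tumor and 3139 to 4129 with a tumor left out, and 2 of the 8 genes became 2 to 3. Between KO tumors, 7342 became 4145 with at least 10 counts in every tumor, 3585 with protein-coding genes alone and 5123 to 7565 with a tumor left out, and 3 of the 8 genes became 1 with at least 10 counts in every tumor and 1 to 3 with a tumor left out. For the interaction, 3168 became 791 with protein-coding genes alone, 1805 with thinned counts, 1458 with the block and 1510 to 4162 with a tumor left out, and 1 of the 8 genes became 2 with DESeq2, 0 with the block and 0 to 2 with a tumor left out. The causes were not tested.

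The correlation of same-numbered deviations was -0.08 and -0.038 in oral and 0.317, -0.025 and -0.069 in pancreatic tumors. Differently numbered tumors were not compared, so these values cannot decide whether the numbers pair tumors. With the block, Hmga1 in oral tumors was at -1.50 (adjusted p = 0.123), the Hmga1 interaction at -2.02 (adjusted p = 0.0539), Sall4 between KO tumors at -6.78, and the sign turned for Igf2bp3 in oral (3.26) and for Hmga1 (-0.01) and Lin28b (-0.16) in pancreatic tumors.

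With a tumor left out, signs turned for several low or variable genes. In oral tumors Hmga2 ran from -0.73 (without oral KO tumor 1) to 3.41, Lin28b from -1.02 (without oral KO tumor 2) to 1.57 and Igf2bp3 from -1.48 to 0.25 (above 0 without oral WT tumor 3 or 4 or oral KO tumor 1). In pancreatic tumors Hmga1 ran from -0.30 (without pancreatic KO tumor 1) to 0.33 and Lin28b from -0.60 to 0.75 (below 0 without pancreatic KO tumor 1 or WT tumor 4). Between KO tumors Hmga2 ran from -2.14 (without oral KO tumor 1) to 2.02 and Lin28b from -0.09 (without oral KO tumor 2) to 2.52. In the interaction Hmga2 ran from -4.02 to 0.16 (above 0 without oral WT tumor 3 or pancreatic KO tumor 1) and Lin28b from -1.33 to 1.32 (below 0 without oral KO tumor 2 or pancreatic WT tumor 1). The Igf2bp3 difference between WT tumors was called in 3 of 13 such fits and with DESeq2 (3.81), unrobust dispersions, protein-coding genes alone or thinned counts (4.02). The Igf2bp1 interaction was called with DESeq2 (-3.51, adjusted p = 0.0207) and without oral WT tumor 1 (-3.81). Of 673 log2 fold changes of the 8 genes under alternatives, 628 kept their direction and side of the threshold. Most were not called in the main fit, and staying uncalled counts as kept, so this total is no measure of how firm the calls are. Of the rest, 16 lost a call, 12 gained a call and 17 changed sign. Mean log2 CPM was counted as moved, by 1 SD or more, in 8 of 96 cases. With a prior count of 0.5, Sall4 went to -4.78 in oral WT and -6.68 in oral KO, and Lin28a to -5.52 in oral KO and -4.33 in pancreatic KO. With protein-coding totals, Hmga1 went to 7.13, Igf2bp1 to 1.11 and Sall4 to -4.50 in oral KO. With DESeq2 size factors, Sall4 in oral KO was counted although it stayed at -4.68, because its SD there was 0.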
